A study of Mus musculus with 10 samples.

Results

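Oligodendrocytes, the myelin-forming glia of the brain, were taken here as the cells that the authors' annotation of the mouse hippocampus names so. They numbered 10933 of 68914 annotated cells (15.9%) in 10 libraries, and the annotation divides them into 4 clusters, numbered 28, 27, 16 and 13. Cluster 28 held 7314 cells (66.9% of the class), cluster 27 1772 cells (16.2%), cluster 16 1394 cells (12.8%) and cluster 13 453 cells (4.14%). Every cluster had cells in all 10 libraries. The clusters carry numbers and no names, and they are called by their numbers below.

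Oligodendrocytes wrap axons in myelin, the sheath that speeds conduction, and supply the axons beneath it with metabolites. They form from oligodendrocyte precursor cells (OPC), which divide throughout adult life and mature through stages in which the myelin genes are switched on. Mbp encodes myelin basic protein, which compacts the sheath, and Mog a glycoprotein of its outer surface, and both are usual markers of the class. The table that was analysed holds names and map positions and no gene values, so Mbp and Mog could not be checked and the class was taken as the authors named it.

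All mice were wild-type C57BL/6 males of 11 weeks, and both of their hippocampi were taken 3 days after injection. Each hippocampus was injected with vehicle (4 libraries), with neurofilament light chain of full length at 1 mg/ml (FL-NfL, 3 libraries) or with coiled-coil NfL at the same concentration (CC-NfL, 3 libraries). Neurofilament light chain is a structural protein of axons, and the study asked what it does to brain cells when supplied from outside them. No group was given an unrelated protein, and all groups share the injection itself. Cells were sorted as live after enzymatic dissociation with actinomycin D, so every share below is a share of cells that survived this and were annotated. Libraries came in the batches b1 (6 libraries) and b2 (4 libraries), with 3150 to 6025 annotated cells each in b1 and 8800 to 14141 in b2, and every group had libraries in both. The 3 libraries numbered 1 stand apart by their neural progenitor cells (NPC), which made up 13.5% to 20.5% of their cells and 1.82% to 5.88% elsewhere, and values without them are given for the class, the ratios and the clusters that they moved most. Few barcodes were shared between libraries: 170 oligodendrocytes (1.55%) had a barcode that also belonged to an annotated cell of another library, and 34 had one that was an oligodendrocyte there too.

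The first question was whether oligodendrocytes took another share of the hippocampal cells after either protein. After vehicle they made up 12.003%, 17.9%, 8.25% and 24.3% of annotated cells in replicates 1 to 4. After FL-NfL they made up 13.4%, 9.71% and 23.8% in replicates 1 to 3, and after CC-NfL 6.85%, 14.9% and 15.4%. The groups overlapped throughout: the lowest and the highest vehicle library enclosed all 3 FL-NfL libraries and 2 of 3 CC-NfL libraries.

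The class averaged 15.6% ± 7.02 (SD, n = 4) in vehicle libraries, 15.6% ± 7.29 (SD, n = 3) in FL-NfL libraries and 12.4% ± 4.80 (SD, n = 3) in CC-NfL libraries. Log2 odds of the class were fitted in limma over all 16 cell classes with group and batch as terms, and p-values were adjusted over the classes by the Benjamini-Hochberg method. The fitted log2 odds ratio came to 0.11 (SE 0.57, 95% interval -1.18 to 1.40, adjusted p = 0.993) for FL-NfL against vehicle. For CC-NfL against vehicle it was -0.28 (SE 0.57, 95% interval -1.57 to 1.02, adjusted p = 0.930). FL-NfL against CC-NfL gave 0.39 (SE 0.60, 95% interval -0.98 to 1.76, adjusted p = 0.918), and both proteins together against vehicle -0.08 (SE 0.48, 95% interval -1.18 to 1.02, adjusted p = 0.930). No contrast passed for oligodendrocytes, while limma called 12.5% of the 16 classes after FL-NfL, 0% after CC-NfL, 0% between the proteins and 12.5% for both proteins together. The intervals are wide: in odds, the one for both proteins together runs from 0.441 to 2.02 times the vehicle level.

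Within batch b1 the mean share of the class was 15.0% in vehicle, 11.6% in FL-NfL and 10.9% in CC-NfL libraries. In b2 vehicle averaged 16.3%, and the single libraries of FL-NfL and CC-NfL held 23.8% and 15.4%. The estimate for FL-NfL against vehicle was therefore negative in b1 alone (-0.42, adjusted p = 0.972). Without the 3 libraries numbered 1 the estimates were 0.04 for FL-NfL and 0.01 for CC-NfL (adjusted p = 0.953 and 0.994).

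**Figure D1:**
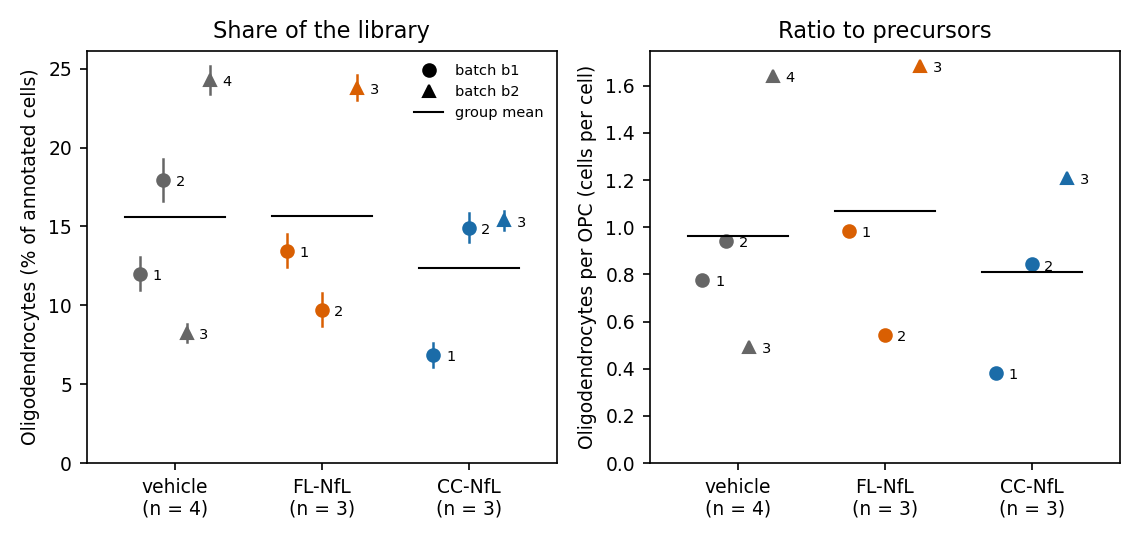
Oligodendrocytes as a percentage of annotated cells (left, bars are exact 95% binomial intervals) and per OPC (right, cells per cell) in each library, numbered by replicate, with circles for batch b1, triangles for b2 and lines for group means. Vehicle libraries run from 8.25% to 24.3%, which covers nearly the whole range of the NfL libraries.

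Libraries differed far more than counting error allows. With 296 to 2695 oligodendrocytes per library, the exact 95% interval of a library's share was narrow, for example 7.71% to 8.81% in vehicle replicate 3 and 23.4% to 25.2% in vehicle replicate 4. Both are libraries of batch b2 and of the same group, and their intervals do not overlap. After group and batch were fitted, the spread between libraries was 14.5 times the binomial counting error, the third largest of the 16 classes, whose median was 4.56 times. This multiple grows with the number of cells counted, so its rank is not a rank of spread alone. The share of OPC, the nearest class by lineage, ran only from 12.7% to 19.0% over the same libraries, a 1.50-fold range against 3.55-fold for oligodendrocytes. Of the glia outside the lineage, astrocytes ran from 1.85% to 8.64%, a 4.66-fold range, and microglia from 24.2% to 38.3%, a 1.58-fold range. By fold range, only OPC, microglia and pericytes (3.27-fold) varied less than oligodendrocytes. Scarcer classes ranged more widely, such as choroid plexus cells (5.38-fold), neurons (5.79-fold) and NPC (11.3-fold).

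A ratio of cell classes does not depend on how many immune cells a library holds, so oligodendrocytes were also set against precursors, astrocytes and neurons. Per OPC there were 0.776, 0.942, 0.493 and 1.64 oligodendrocytes in vehicle replicates 1 to 4, 0.986, 0.544 and 1.68 in FL-NfL replicates 1 to 3 and 0.381, 0.843 and 1.21 in CC-NfL replicates 1 to 3. More oligodendrocytes than OPC were counted in 3 of 10 libraries, 1 in each group and all in batch b2. The mean difference on the log2 scale was 0.14 for FL-NfL and -0.26 for CC-NfL against vehicle (two-sided exact permutation p = 0.714 and 0.686, adjusted p = 0.990 for each over 12 ratio tests). Between the proteins it was 0.40 (exact permutation p = 0.600), and for both together against vehicle -0.06 (exact permutation p = 0.905). Per OPC, FL-NfL lay below vehicle in b1 (-0.22 on the log2 scale) and above it in b2 (0.90), where a single FL-NfL library was compared. Without the 3 libraries numbered 1 the per-OPC differences from vehicle were 0.066 for FL-NfL and 0.14 for CC-NfL, so the sign for CC-NfL turned.

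Per astrocyte the libraries ranged widest in the vehicle group, from 1.00 to 9.67 oligodendrocytes, and from 2.89 to 3.89 after FL-NfL and 1.30 to 7.48 after CC-NfL. The log2 differences from vehicle were 0.20 and 0.22 (exact permutation p = 0.686 and 0.743). Both were negative in b1 (-0.69 and -0.64) and positive in b2 (1.21 and 1.16), and without the libraries numbered 1 they were 0.15 and 0.81.

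Per neuron there were 2.61, 2.07 and 2.89 oligodendrocytes in FL-NfL replicates 1 to 3 and 0.773, 1.97 and 1.27 in CC-NfL replicates 1 to 3. These groups did not overlap, and the log2 difference was 1.00, with 0.91 in b1 and 1.19 in b2. The exact permutation p was 0.10 and the adjusted p 0.990. As 0.10 is the smallest p that 3 against 3 libraries allow, this difference could not have passed. Without the libraries numbered 1 it was 0.63. Vehicle libraries, at 5.74, 1.69, 0.860 and 3.78, enclosed all FL-NfL libraries. CC-NfL replicate 1, at 0.773, lay below every vehicle library, and the other CC-NfL libraries lay inside the vehicle range. CC-NfL differed from vehicle by -0.93 on the log2 scale (exact permutation p = 0.314, adjusted p = 0.990) and FL-NfL by 0.08 (exact permutation p = 0.943), or by -0.16 and 0.47 without the libraries numbered 1.

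The second question was whether the class kept its make-up by cluster. Each cluster was tested as a share of oligodendrocytes, in a limma fit over 22 clusters of the 7 classes that hold more than 1. Limma called 0 of the 4 oligodendrocyte clusters in each of the 4 contrasts, against 0% of the 22 clusters in each. Over these 22, 2 clusters had an unadjusted p under 0.05 after FL-NfL, 8 after CC-NfL, 0 between the proteins and 8 for both proteins together, and a quasi-binomial model called 0, 6, 0 and 3, none of them an oligodendrocyte cluster. The 4 shares of a library add up to a fixed total, so these tests are not independent.

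Cluster 16 had the largest estimate of the 22 clusters in every contrast with vehicle. It made up 1.08%, 6.61%, 18.3% and 3.23% of oligodendrocytes in vehicle replicates 1 to 4. After FL-NfL it made up 10.8%, 20.9% and 11.8% in replicates 1 to 3, and after CC-NfL 10.1%, 17.5% and 23.2%. All 6 NfL libraries lay above 3 of 4 vehicle libraries, while vehicle replicate 3 lay among them and above 4 of the 6. The vehicle mean was 7.29% ± 7.66 (SD, n = 4), the FL-NfL mean 14.5% ± 5.59 (SD, n = 3) and the CC-NfL mean 16.9% ± 6.54 (SD, n = 3).

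For cluster 16 the log2 odds ratio against vehicle was 1.83 after FL-NfL (SE 0.88, 95% interval -0.19 to 3.85, adjusted p = 0.307). It was 2.08 after CC-NfL (SE 0.88, 95% interval 0.07 to 4.10, unadjusted p = 0.0443, adjusted p = 0.122) in limma. For both proteins together it was 1.96 (SE 0.74, 95% interval 0.25 to 3.67, unadjusted p = 0.0297, adjusted p = 0.127), and none of these passed after adjustment. Between the 2 proteins the estimate was -0.25 (SE 0.93, 95% interval -2.39 to 1.88, adjusted p = 0.840). The percentage itself, tested by exact permutation for both proteins together, had p = 0.0857, or 0.0889 when libraries were exchanged only inside a batch.

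Single vehicle libraries weigh on the estimate for cluster 16. Vehicle replicate 1 held 5 cells of cluster 16 among 465 oligodendrocytes (exact 95% interval 0.350% to 2.49%), and leaving it out brought the estimate for both proteins to 1.22 (adjusted p = 0.298). Without vehicle replicate 3, whose 147 cells of cluster 16 make 18.3%, the estimate was 2.54 (unadjusted p = 0.00515, adjusted p = 0.104). In batch b1 the mean share of cluster 16 was 3.84% in vehicle, 15.8% in FL-NfL and 13.8% in CC-NfL libraries, with both vehicle libraries below all 4 NfL libraries. In b2 vehicle averaged 10.7%, and the single FL-NfL and CC-NfL libraries held 11.8% and 23.2%. Without the 3 libraries numbered 1 the estimate for both proteins was 1.42 (adjusted p = 0.307).

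**Figure D2:**
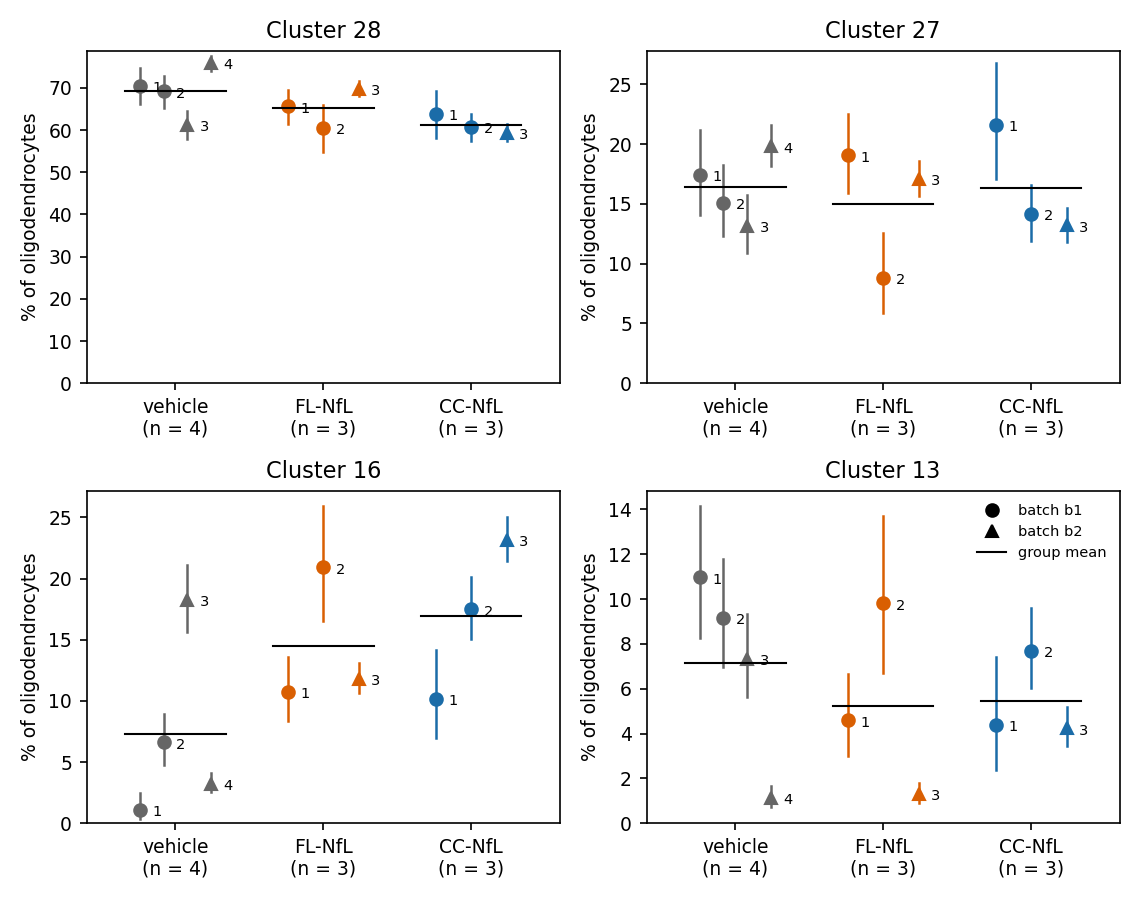
Each oligodendrocyte cluster as a percentage of the oligodendrocytes of a library (y axis from 0, exact 95% binomial intervals), numbered by replicate, with circles for batch b1, triangles for b2 and lines for group means. In cluster 16 all 6 NfL libraries lie at 10.1% or above and 3 of 4 vehicle libraries at 6.61% or below, with vehicle replicate 3 at 18.3%.

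As a share of all annotated cells, cluster 16 made up 0.129%, 1.19%, 1.51% and 0.784% in vehicle replicates 1 to 4, 1.45%, 2.03% and 2.81% after FL-NfL and 0.694%, 2.61% and 3.56% after CC-NfL. On this scale 4 of 6 NfL libraries lay above every vehicle library. Of the 31 clusters tested so, limma called 6.45% after FL-NfL, 0% after CC-NfL, 0% between the proteins and 3.23% for both together, and none of the 4 oligodendrocyte clusters among them. The log2 odds ratio of cluster 16 was 1.82 after FL-NfL (SE 0.78, adjusted p = 0.491), 1.70 after CC-NfL (SE 0.78, adjusted p = 0.283) and 1.76 for both (SE 0.66, adjusted p = 0.292). Both proteins share the same vehicle libraries, so these estimates are not independent of each other.

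Cluster 28, the bulk of the class, made up 70.5%, 69.2%, 61.2% and 75.8% of oligodendrocytes in vehicle replicates 1 to 4, 65.6%, 60.5% and 69.8% after FL-NfL and 63.9%, 60.7% and 59.4% after CC-NfL. The 3 CC-NfL libraries lay below 3 of 4 vehicle libraries, with vehicle replicate 3 again the exception. Cluster 28 averaged 69.2% ± 6.03 (SD, n = 4) in vehicle, 65.3% ± 4.70 (SD, n = 3) in FL-NfL and 61.3% ± 2.29 (SD, n = 3) in CC-NfL libraries. Its estimated log2 odds ratio in limma came to -0.26 (SE 0.33, adjusted p = 0.682) after FL-NfL and -0.51 (SE 0.33, adjusted p = 0.303) after CC-NfL, and -0.38 (SE 0.28, adjusted p = 0.470) for both. The estimate for FL-NfL was -0.46 without FL-NfL replicate 3 and -0.11 without vehicle replicate 4.

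Cluster 27 had the smallest estimate of the 4 for both proteins together. It made up 13.2% to 19.8% of oligodendrocytes after vehicle, 8.82% to 19.0% after FL-NfL and 13.2% to 21.6% after CC-NfL. Means were 16.4% ± 2.87 (SD, n = 4), 15.0% ± 5.42 (SD, n = 3) and 16.3% ± 4.62 (SD, n = 3). Its log2 odds ratio for both proteins together was -0.12 (SE 0.36, 95% interval -0.94 to 0.71, adjusted p = 0.817) in limma. The lowest value, 8.82%, came from FL-NfL replicate 2, where 27 cells of cluster 27 were counted.

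Cluster 13, the smallest, made up 11.0%, 9.15%, 7.33% and 1.12% of oligodendrocytes in vehicle replicates 1 to 4, 4.59%, 9.80% and 1.30% after FL-NfL and 4.39%, 7.68% and 4.23% after CC-NfL. Every NfL library lay inside the vehicle range. Limma gave a log2 odds ratio of -0.77 (SE 0.72, adjusted p = 0.601) after FL-NfL, -0.33 (SE 0.72, adjusted p = 0.801) after CC-NfL and -0.55 (SE 0.61, adjusted p = 0.593) for both. Without the libraries numbered 1 these were -0.56, 0.11 and -0.22, so the sign for CC-NfL turned. Leaving out vehicle replicate 4 brought FL-NfL to -1.27 and both proteins to -1.05, leaving out FL-NfL replicate 3 brought FL-NfL to -0.34, and leaving out vehicle replicate 3 brought both to -0.12. Its lowest values, 1.12% and 1.30%, stand in vehicle replicate 4 and FL-NfL replicate 3, the libraries with the highest share of oligodendrocytes at 24.3% and 23.8%. They held 24 and 35 cells of cluster 13, or 0.273% and 0.309% of annotated cells, against 0.301% to 1.64% elsewhere.

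Between FL-NfL and CC-NfL the log2 odds ratios of the 4 clusters within the class were -0.43 (cluster 13), -0.25 (cluster 16), -0.18 (cluster 27) and 0.25 (cluster 28), each with an adjusted p of 0.840 in limma. The 95% intervals reached from -2.39 to 1.88 for cluster 16 and from -0.56 to 1.07 for cluster 28.

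**Figure D3:**
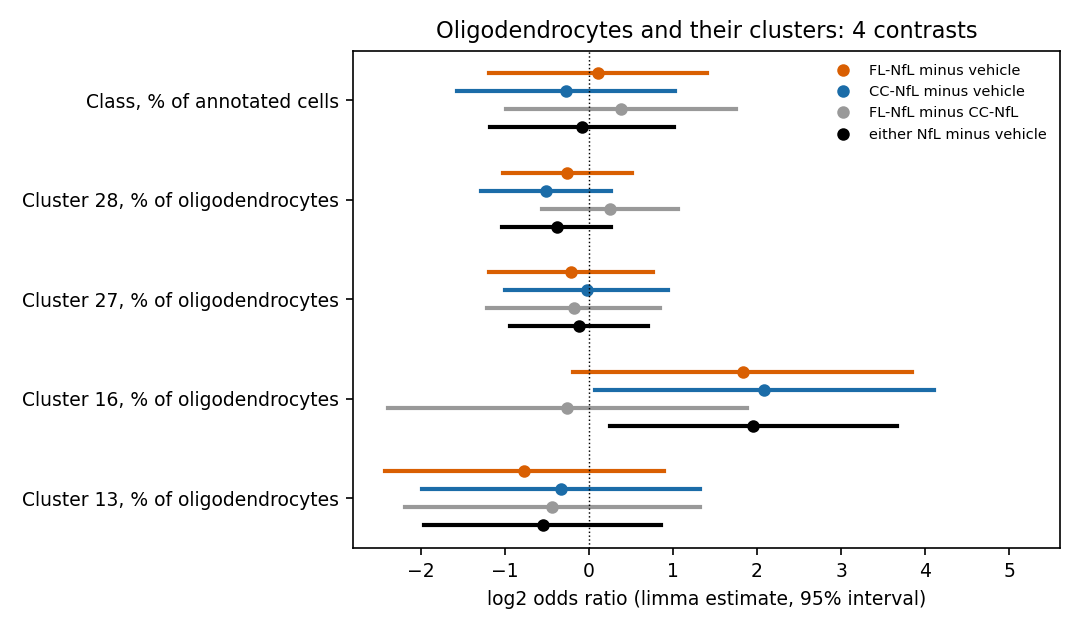
Limma log2 odds ratios (points) with 95% intervals (lines) for the share of oligodendrocytes among annotated cells and of each cluster within oligodendrocytes, in the 4 contrasts. The intervals of cluster 16 for CC-NfL and for both proteins against vehicle exclude 0 before adjustment, and every other interval includes it.

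The batches, which differ in annotated cells per library, were compared over the same values. Cluster 13 averaged 7.76% ± 2.75 (SD, n = 6) of oligodendrocytes in b1 and 3.50% ± 2.93 (SD, n = 4) in b2, with a two-sided exact permutation p of 0.0429 that became 0.257 after adjustment over 6 measures. The class made up 12.5% ± 3.90 (SD, n = 6) of annotated cells in b1 and 17.9% ± 7.63 (SD, n = 4) in b2 (exact permutation p = 0.181). Clusters 16, 27 and 28 and the log2 ratio to OPC had exact permutation p-values of 0.562, 0.938, 0.671 and 0.157. Spread between libraries over counting error, which grows with the number of cells, was 6.82-fold for cluster 16, the fifth largest of 22 clusters within classes. It was 4.31-fold for cluster 13, 3.55-fold for cluster 28 and 2.95-fold for cluster 27, beside a median of 4.35-fold.

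Cluster shares were also compared with 2 immune measures over the 6 NfL libraries, macrophages as a share of annotated cells and the Activated_2 state as a share of microglia. None of the 8 relations passed. Cluster 16 had a Pearson r of -0.08 with macrophages (exact permutation p = 0.885, Spearman rho 0.09, p = 0.919 by exact permutation) and of 0.32 with Activated_2 microglia (exact permutation p = 0.594, Spearman rho 0.26, p = 0.658 by exact permutation). By Pearson's r the highest in size was cluster 28 with Activated_2 microglia (Pearson r = -0.68, exact permutation p = 0.156, adjusted p = 0.628; Spearman rho -0.60, exact permutation p = 0.242). This r was -0.75 without the 2 libraries farthest from the median Activated_2 share and -0.56 over the 4 NfL libraries of b1. By Spearman's rho the highest was cluster 13 with Activated_2 microglia (rho 0.77, exact permutation p = 0.103, adjusted p = 0.822). Its Pearson r was 0.64 (exact permutation p = 0.157), 0.32 without the 2 farthest libraries and 0.30 in b1.

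On the authors' t-SNE map, which places cells with similar expression near each other, oligodendrocytes formed a territory of their own. Among the 30 nearest annotated cells of each oligodendrocyte, 0 belonged to any other class, in any of the 4 clusters. The same held for OPC among the 15 and the 60 nearest cells, so the percentage of oligodendrocytes with a precursor among their neighbours was 0 in all 10 libraries and no test between groups could be made. Clusters and map come from the same gene values, so what follows is a description and no test.

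Cluster 28, which holds 66.9% of the class, lay next to each of the other 3 clusters. The percentages below are not adjusted for the size of the clusters. Of cluster 13, 23.0% of cells (104 of 453) had at least 1 cell of cluster 28 among their 30 neighbours, as had 17.4% of cluster 16 (242 of 1394) and 17.3% of cluster 27 (306 of 1772). Clusters 16 and 27 also touched, at 4.23% of cluster 16 and 6.15% of cluster 27. Clusters 13 and 27 did not touch at all, with 0 cells on either side, and clusters 13 and 16 touched at 4.64% of cluster 13 (21 cells) and 0.215% of cluster 16 (3 cells). Neighbours came from a cell's own cluster for 94.0% (cluster 27) to 97.8% (cluster 28) of all neighbours. Border percentages depended on the number of neighbours. With 15, a neighbour in cluster 28 was found for 13.9% of cluster 13, 11.8% of cluster 16 and 14.6% of cluster 27. With 60 it was found for 29.4%, 28.1% and 21.7% in the same order.

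**Figure D4:**
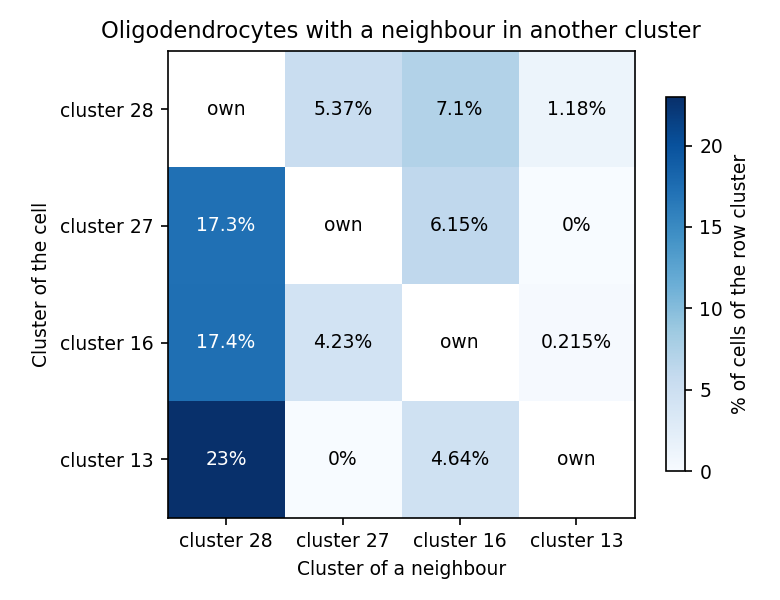
Percentage of the cells of each oligodendrocyte cluster (rows) with at least 1 cell of another oligodendrocyte cluster (columns) among their 30 nearest cells on the authors' t-SNE map. Every smaller cluster borders cluster 28, at 17.3% to 23.0% of its cells, and clusters 13 and 27 share no border.

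Cells of different libraries mixed within the clusters, though not evenly. In cluster 16, 23.0% of same-cluster neighbours came from the cell's own library, where 21.4% would follow from the libraries' shares of the cluster, and 39.0% came from its own treatment group against 38.1%. In cluster 28 these were 21.7% against 16.6% for the library and 38.8% against 33.97% for the group. A neighbour from the same library is also one from the same group and batch, so these values are not separate. Whether groups or batches lay apart beyond their libraries was not tested. By library, cells of cluster 28 had between 1.10 (CC-NfL replicate 3) and 1.76 (CC-NfL replicate 2) times as many neighbours from their own library as its share gives. In cluster 16 this ran from 0.914 (CC-NfL replicate 1) to 1.65 (CC-NfL replicate 2), leaving aside 2.32 on 5 cells in vehicle replicate 1. It was 1.02 in FL-NfL replicate 3 and CC-NfL replicate 3, whose 318 and 504 cells weigh most on the pooled value. Same-batch neighbours were 66.7% against 59.9% in cluster 28 and 62.6% against 62.0% in cluster 16.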

How the data were processed

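The authors used Cell Ranger 6.0.1 and the build GRCm38, per the submitters' processing notes. How cells were filtered, checked for doublets, clustered, named and mapped is not given in the sources used here. Of 108266 barcodes in the deposited table, 39352 carry no annotation and served only as a denominator. Its columns hold names (cluster, class, state, condition, batch) and t-SNE positions, a score without unit that the authors computed. Condition and batch matched the labels in all 68914 annotated cells.

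Cells were counted per library, and the library, 1 per mouse, was the replicate. Log2((cells + 0.5) / (other cells + 0.5)) was modelled by group and batch over all 10 libraries (limma 3.58.1 in R 4.3.3) and p-values were adjusted over 16 classes, 22 clusters within classes or 31 clusters averaging 10 or more cells a library. An adjusted p under 0.05 was a call. Ratios, batches and relations were tested by two-sided exact permutation in Python 3.11.15 (scipy 1.17.1, numpy 2.4.6). With 4 against 3 libraries the smallest such p is 0.0286. Binomial intervals are exact (Clopper-Pearson, 95%) and cover counting error only. The naming rule took all 4 clusters of the class, and other clusters only as map neighbours. Alternatives changed the added count, scale, model, batch term, libraries, denominator, minimum of cells and number of neighbours. Members, lists and tests were chosen with earlier results of these data known.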

Additional observations from a re-analysis of the deposited data

How the results depend on the processing

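No call was gained or lost. Under every alternative run, 0 of 4 oligodendrocyte clusters passed on either scale in each contrast, and neither the class nor a ratio passed. For the ratios this was partly fixed in advance. In b1 alone and with the replicate block, too few libraries are exchanged for any adjusted p under 0.05. The same holds for ratios between the proteins in every setting. Several estimates changed sign, the largest in size being -0.43 for cluster 13 between the proteins and -0.42 per neuron for both proteins against vehicle. The causes were not tested. No label ties a replicate number to a shared day or litter. In deviations from group means over the 16 classes, 7 of 9 same-numbered pairs correlated above 0.1 (-0.13 to 0.54). These were all pairs with CC-NfL, and 1 of 3 between vehicle and FL-NfL. Same-numbered libraries also share a batch, and pairs of different numbers were not correlated for comparison. With batch means removed too, CC-NfL correlated with vehicle at 0.040, 0.32 and 0.10 in replicates 1 to 3. With FL-NfL it correlated at 0.29, 0.54 and -0.10, and vehicle with FL-NfL at -0.31, -0.16 and 0.23. Whether the numbers pair libraries is thus not settled, and the replicate block changed no call. Vehicle replicate 4, the library with the highest share of the class, has no same-numbered partner, so the block takes it out of every contrast. The block gave, for both proteins against vehicle, 0.13 for the class, 0.24 per OPC, 0.0017 for cluster 27 and 1.63 for cluster 16 (adjusted p = 0.0891). For CC-NfL it gave 0.037 per OPC and 0.092 for cluster 27. Leaving out vehicle replicate 4 with no block also gave 0.24 per OPC for both proteins. In b1 alone FL-NfL against vehicle was -0.42 for the class and -0.22 per OPC, -0.69 per astrocyte and -0.42 per neuron, CC-NfL was -0.64 and both together -0.66 per astrocyte, CC-NfL was 0.14 for cluster 27, and FL-NfL against CC-NfL was 0.22 for cluster 13 and 0.20 for cluster 16. As linear ratios, FL-NfL minus vehicle was -0.67 per astrocyte and -0.49 per neuron, and both minus vehicle -0.24 per astrocyte. Over all barcodes the class was at -0.078 after FL-NfL. For both together it was at 0.15 in the quasi-binomial model, 0.033 among non-immune cells and 0.025 without the 3 libraries numbered 1, where CC-NfL gave 0.0054 for the class, 0.11 for cluster 13 and 0.14 per OPC, the proteins differed by -0.079 per OPC, and both together gave 0.11 per OPC and 0.16 per neuron. Per OPC, both together gave 0.052 within batch. Cluster 27 between the proteins was 0.27 in the quasi-binomial model. Cluster 16 between the proteins, as a share of annotated cells, was -0.28 in that model, -0.36 without the libraries numbered 1, -0.10 over all barcodes and -0.0012 on the arcsine scale.

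Leaving out 1 library at a time moved the class from -0.29 to 0.39 (FL-NfL), -0.68 to 0.059 (CC-NfL), 0.02 to 0.70 (between proteins) and -0.48 to 0.20 (both). Per OPC the ranges were -0.26 to 0.55, -0.63 to 0.20, -0.064 to 0.82 and -0.34 to 0.24 in the same order, per astrocyte -0.30 to 0.79, -0.37 to 0.89, -0.69 to 0.57 and -0.30 to 0.79, and per neuron -0.41 to 0.50, -1.41 to -0.50, 0.66 to 1.34 and -0.91 to 0.0020. Within the class, cluster 27 ranged from -0.45 to 0.18, -0.29 to 0.23, -0.44 to 0.24 and -0.25 to 0.063. Cluster 13 ranged from -1.27 to -0.34, -0.95 to 0.092, -0.89 to 0.10 and -1.05 to -0.12, and cluster 28 from -0.46 to -0.11, -0.69 to -0.36, 0.072 to 0.41 and -0.57 to -0.24. Between the proteins, cluster 16 ranged from -0.78 to 0.33 in the class and -0.44 to 0.59 of annotated cells. Against vehicle cluster 16 ranged in the class from 1.22 to 2.54 for both proteins, and its adjusted p over all alternatives ran from 0.206 to 0.741 (FL-NfL), 0.0676 to 0.571 (CC-NfL) and 0.0891 to 0.533 (both). As a share of annotated cells it ran from 0.109 to 0.949, 0.0584 to 0.765 and 0.0644 to 0.736. Exact permutation of percentages, the non-progenitor denominator and ratios without the libraries numbered 1 were added after seeing the data. Permutations of OPC neighbours were not run, as every library was at 0. Each group has 3 or 4 libraries, single libraries hold as few as 5 cells of cluster 16, and live sorting and annotation decide which cells are counted.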

Other observations

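Border cells of cluster 13 were spread unevenly over the libraries, a pattern seen only after the values were at hand and not tested. In vehicle replicate 4, 50% of the cells of cluster 13 had a cell of another oligodendrocyte cluster among their 30 nearest cells on the map, and in FL-NfL replicate 3 48.6%. In the other 8 libraries the percentage lay between 5.88% and 28.3%. The first 2 libraries also held the highest shares of oligodendrocytes among annotated cells and the lowest shares of cluster 13 within the class. They belong to different treatment groups and to the same batch, and they rest on 24 and 35 cells of cluster 13.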
